A study of Mus musculus with 2 samples.

Results

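Type I interferon-stimulated genes were followed across the cell classes of 2 mouse mammary tumor models. The set holds 35 genes of the 33696 counted. It was chosen as a list of genes known to be induced by type I interferon, grouped here by role. The rule uses no measured value, but the choice was made with earlier results of these data known. All 35 had at least 1 UMI (a count of 1 captured RNA molecule) in the blood endothelial cells of both libraries. The question was which of them stood high in endothelial cells only and which were shared with the other cells of the tumor.

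The cells came from tumors of female C57BL/6 mice that carried sublines of the MMTV-PyMT model, in which polyoma middle T antigen is driven by the mouse mammary tumor virus promoter. PyMT-M is the High-MAC and PyMT-N the Low-MAC model in the study's naming. Tumors were dissociated, for which the sample protocol names collagenase I and the study's methods collagenase II with dispase II, then depleted of CD45+ and Ter119+ cells, enriched on beads for CD31 and CD144, and sorted for both. Cells of 3 tumors were pooled in each condition ahead of 10x Genomics 3′ sequencing, which leaves 1 library for a condition. Animals cannot be told apart, and no difference between PyMT-M and PyMT-N has a replicate check. Intervals given with values are 95% intervals of counting error only.

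Type I interferons bind the receptor chains IFNAR1 and IFNAR2, whose kinases JAK1 and TYK2 activate STAT2. With IRF9, STAT2 is part of the complex ISGF3, which binds a DNA motif called the interferon-stimulated response element (ISRE) at the genes it turns on. The products include proteins that bind or cut viral RNA, sensors of double-stranded RNA, the ubiquitin-like protein ISG15 with the enzymes that attach and remove it, and the factors STAT2, IRF9 and IRF7 themselves, which renew the response. Endothelial cells line vessels and carry the receptors for both type I interferon and interferon gamma.

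The label of the samples is endothelial, but most kept cells were not. Of 6719 kept PyMT-M cells, 588 (8.75%, 8.09 to 9.45) met the rule for blood endothelial cells, 20 for lymphatic endothelial cells, 4902 (73.0%) for tumor cells, 58 for fibroblasts and 488 for Ptprc+ (CD45, leukocyte) cells. In PyMT-N the numbers were 1065 (19.0%), 207, 3306 (59.0%), 63 and 357 of 5607 kept cells. Endothelial markers that the rule did not use marked the class, with 10 markers summing to 7202 and 6524 CPM (the UMIs of a gene scaled to an equal total in every class) in blood endothelial cells against 101 and 59.1 CPM in tumor cells (PyMT-M and PyMT-N). The tumor class is named from its rule genes Krt8, Krt18 and Rhox5, since Epcam, Cdh1, Krt19, Krt7, Krt14 and Krt5 each lay at 3.52 CPM or less there. Depth differed between classes. The median depth of blood endothelial cells was 5206 UMIs (PyMT-M) and 12696 (PyMT-N). It was 23716 and 20758 UMIs for tumor cells, and 1722 and 7581 for Ptprc+ cells. In PyMT-M 41 of the Ptprc+ cells and 12 of the 58 fibroblasts also met the tumor rule. In PyMT-N 56 cells met both the blood endothelial and the Ptprc+ rule. The 2 libraries shared 20 barcodes, of which 12 were kept and 0 were blood endothelial cells in both.

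Promoter sequence was read for the genes on which the results turn, to show matches to the ISRE. RefSeq promoters (build GRCm38.p6, 250 bases before to 50 after each annotated start) were at hand for 25 of the 35 genes. The ISRE core was searched as TTCNNTTTC on both strands, with overlapping matches counted, and 13 of the 25 genes (52.0%) held it, against 9.76% of the 27025 genes in the table and 8.56% of its 32851 promoters. With 1 more T required at the 5′ end the counts were 10 of 25 (40.0%) and 3.99% of genes. The gamma-activated site, TTCNNNGAA, was held by 5 of 25 (20.0%) and 9.55% of genes. A match is a description of letters and no evidence that a factor binds there. The 10 genes without an entry were Oas2, Mx1, Mx2, Usp18, Rtp4, Rigi, Dhx58, Parp9, Parp14 and Zbp1.

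Below are the 200 bases before the start, 5′ to 3′ on the strand of the gene, with matches to the ISRE core in capitals. The Ifit genes lie side by side on chromosome 19, Ifit1 at chr19:34640689-34640888 (+ strand), Ifit3 at chr19:34583329-34583528 (+ strand) and Ifit3b at chr19:34607757-34607956 (+ strand), and are shown because Ifit3 and Ifit3b had 2 of the 3 largest endothelial-over-tumor ratios in PyMT-M. Each held 3 matches on the strand of the gene. In Ifit1 the matches ran from base -109 to base -76 of the start.
Ifit1: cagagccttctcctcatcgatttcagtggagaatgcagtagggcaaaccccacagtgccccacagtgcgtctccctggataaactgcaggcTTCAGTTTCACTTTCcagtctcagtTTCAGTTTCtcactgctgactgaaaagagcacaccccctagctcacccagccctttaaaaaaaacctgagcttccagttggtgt
Ifit3: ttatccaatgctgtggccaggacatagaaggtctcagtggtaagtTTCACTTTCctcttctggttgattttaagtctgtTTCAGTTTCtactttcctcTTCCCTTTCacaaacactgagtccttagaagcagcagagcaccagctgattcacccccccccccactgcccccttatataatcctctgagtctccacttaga
Ifit3b: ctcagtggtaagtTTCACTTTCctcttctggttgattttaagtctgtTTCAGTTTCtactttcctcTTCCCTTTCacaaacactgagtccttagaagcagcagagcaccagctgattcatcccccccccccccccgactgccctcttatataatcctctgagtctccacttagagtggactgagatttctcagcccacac
Isg15 at chr4:156200819-156201018 (- strand) and Oas3 at chr5:120777660-120777859 (- strand) held overlapping matches on the other strand, so that the capitals are the reverse complement of the motif. Isg15 passed 2-fold over tumor cells in both libraries, narrowly in PyMT-N, and Oas3 did in neither.
Isg15: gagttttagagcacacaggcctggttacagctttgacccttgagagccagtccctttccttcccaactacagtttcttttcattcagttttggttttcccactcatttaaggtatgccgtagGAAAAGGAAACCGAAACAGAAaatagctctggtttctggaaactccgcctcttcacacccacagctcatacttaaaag
Oas3: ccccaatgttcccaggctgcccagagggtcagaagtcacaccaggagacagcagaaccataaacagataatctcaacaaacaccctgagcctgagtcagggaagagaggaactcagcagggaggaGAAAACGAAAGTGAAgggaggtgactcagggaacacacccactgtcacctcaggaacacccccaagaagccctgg
Rsad2 at chr12:26456453-26456652 (- strand) held 1 match. Uba7 at chr9:107975367-107975566 (+ strand) held none in this window and was among the highest endothelial-over-tumor ratios in both libraries.
Rsad2: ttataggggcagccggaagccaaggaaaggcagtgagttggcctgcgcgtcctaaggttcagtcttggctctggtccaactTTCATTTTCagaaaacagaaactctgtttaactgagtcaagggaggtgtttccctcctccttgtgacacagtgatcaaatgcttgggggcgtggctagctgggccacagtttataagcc
Uba7: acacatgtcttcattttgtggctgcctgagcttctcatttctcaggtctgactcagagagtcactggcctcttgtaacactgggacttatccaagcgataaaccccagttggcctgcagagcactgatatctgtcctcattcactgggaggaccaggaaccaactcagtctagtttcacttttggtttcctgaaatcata

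The matches of all 13 genes are drawn by their distance from the start. Of these 13, 8 held at least 2 matches, and Ifi44, Eif2ak2, Samd9l and Ifih1 held a match across or after the annotated start.

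**Figure D1:**
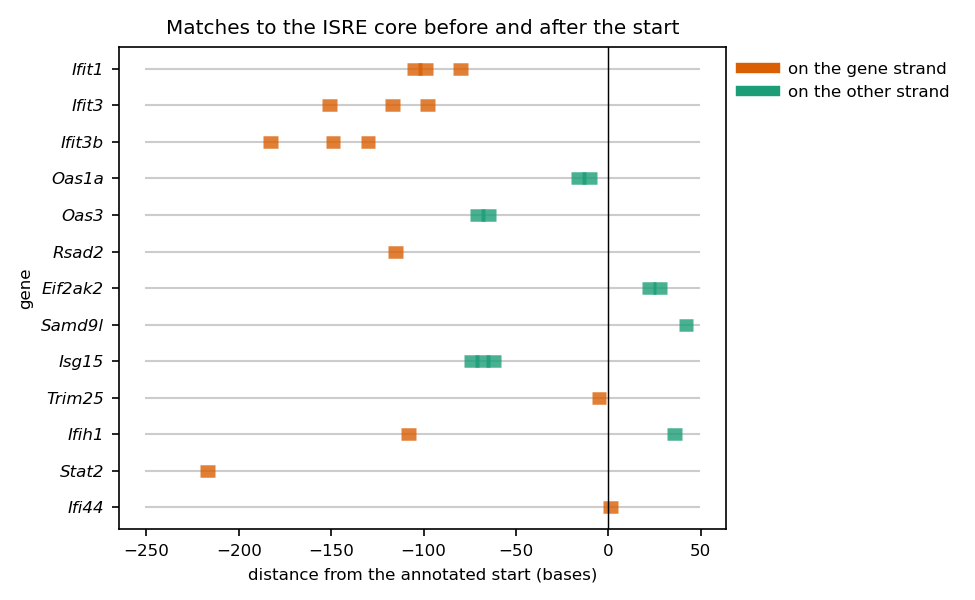
Matches to the ISRE core in the 13 genes that hold one. The x axis is the distance from the annotated start in bases, each row is a gene with a grey line over the 300 bases searched, and blocks mark matches on the gene strand (orange) or the other strand (green). Matches of Ifit1, Ifit3, Ifit3b, Isg15, Oas3 and Rsad2 lie between -187 and -58.

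Across the cell classes, the summed level of the 35 genes was highest in blood endothelial cells of PyMT-M, at 4983 CPM (4907 to 5060). The other PyMT-M classes stood at 3753 CPM in lymphatic cells, 2315 in fibroblasts, 2206 in Ptprc+ cells and 1268 in tumor cells. With cells of 1 class only, the PyMT-M sums were 2594 CPM in fibroblasts and 2698 in Ptprc+ cells. These rest on 320003 and 1458333 UMIs, against 537305 and 2561244 with all cells of the class. In PyMT-N the order differed, with 2238 CPM in lymphatic cells (2183 to 2294), 1988 in blood endothelial cells (1966 to 2011), 1618 in Ptprc+ cells, 966 in fibroblasts and 712 in tumor cells. Tumor cells were thus lowest in both libraries, and neighbouring classes in each order had intervals that did not overlap, apart from fibroblasts and Ptprc+ cells of PyMT-M. Among blood endothelial, tumor, fibroblast and Ptprc+ cells, the blood endothelial level was the highest for 32 of 35 genes in PyMT-M and for 18 of 35 in PyMT-N. Over all genes ranked against the other 3 classes it was the highest for 38.5% of 6718 genes in PyMT-M and 32.2% of 9945 in PyMT-N.

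**Figure D2:**
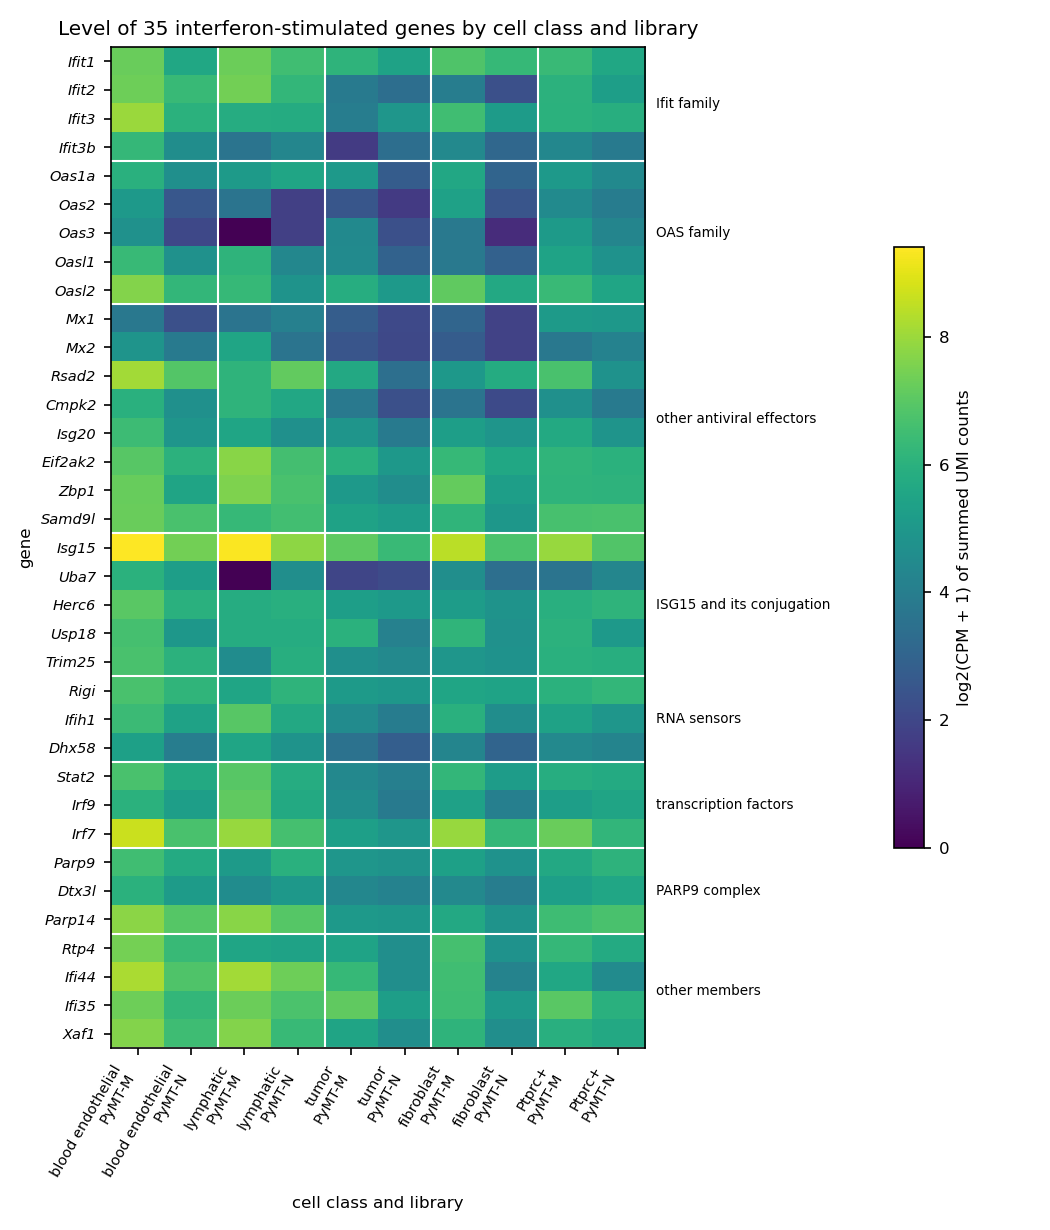
Level of each gene (rows, grouped by role) in each cell class and library (columns), as log2(CPM + 1) of summed UMI counts. Colors are to be read along a row, since 3′ counts of different genes are not on one scale per transcript. The blood endothelial column of PyMT-M is the brightest of the blood endothelial, tumor, fibroblast and Ptprc+ columns of that library for 32 of 35 genes.

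Together these genes made up a larger share of the UMIs of blood endothelial cells than of tumor cells in the same library. This share is not an amount per cell. In PyMT-M 16430 UMIs of the set lay in 588 blood endothelial and 153234 in 4902 tumor cells. In PyMT-N 29644 lay in 1065 blood endothelial and 53794 in 3306 tumor cells. In PyMT-M 31 of 35 genes were at least 2-fold higher in blood endothelial cells (17.6% of the 10395 genes ranked), 0 were at least 2-fold lower (19.1%), and the median log2 ratio was 1.92 against -0.02 over all ranked genes. PyMT-N gave 27 of 35 (20.6% of 13901 genes), 0 lower (16.3%), and a median of 1.31 against 0.08. Tumor sums were 120865164 (PyMT-M) and 75557854 UMIs (PyMT-N), against 3297266 and 14909776 in blood endothelial cells. With sums this unequal a gene is ranked mainly through its tumor level. The shares over all ranked genes may thus miss genes seen mainly in blood endothelial cells. For 34 genes in PyMT-M and 33 in PyMT-N the counting interval lay above 0. The counts ranged from 26 to 33 in PyMT-M and from 24 to 29 in PyMT-N over 12 other ways of processing. Of the 10 endothelial markers, Esam, Tie1, Cldn5, Robo4 and Tek stood in tumor cells at 0.0558% to 0.243% of their blood endothelial level. All 10 together summed to 101 (PyMT-M) and 59.1 CPM (PyMT-N) in tumor cells, most of it from the markers not named here. In blood endothelial cells they summed to 7202 and 6524 CPM. The tumor rule allows 0 UMIs of Pecam1 and Flt1, so it selects against cells with endothelial RNA. Wfdc2, a tumor marker outside the rule, stood in blood endothelial cells at 7.13% of its tumor level in PyMT-M and 0.828% in PyMT-N. Pdgfrb, which tumor cells also held, stood there at 23.2% and 1.24%, and the part of either in the ratios was not tested.

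The Ifit genes, among them Ifit1, whose protein binds viral RNA that lacks host cap marks, covered much of the range. Ifit3b stood at 76.1 CPM in blood endothelial and 2.10 CPM in tumor cells of PyMT-M, a log2 ratio of 5.18 (4.92 to 5.44). In PyMT-N it stood at 23.5 and 9.44 CPM, a log2 ratio of 1.31. Ifit3 was likewise at 252 and 15 CPM in PyMT-M (log2 ratio 4.07) and at 63.6 and 29.6 CPM in PyMT-N (1.10). The PyMT-N ratio of Ifit3 was 0.93, within 2-fold, after cells were thinned to 4000 UMIs. Both paralogs were thus far closer between the classes in PyMT-N. They are nearly identical in parts, with 35.1% of the 90-base stretches of Ifit3 also found in Ifit3b but 6.57% in its last 500 bases, and 30.5% of those of Ifit3b found in Ifit3 but 0% in its last 500. Reads of the shared stretches could be split or lost between the 2 genes, which are counted here as 2, so the value of each is uncertain to that extent. Ifit2 was at 160 and 13.5 CPM in PyMT-M (log2 ratio 3.57) and at 79.3 and 9.57 CPM in PyMT-N (3.05). Ifit1 differed less, with 153 and 68.5 CPM in PyMT-M (1.15) and 47.2 and 41.3 CPM in PyMT-N (0.19).

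Among the OAS genes, which make or resemble the synthases of the short oligoadenylates that activate RNase L, Oas3 did not separate the classes. It stood at 25.8 CPM in blood endothelial and 21.3 CPM in tumor cells of PyMT-M (log2 ratio 0.27, -0.06 to 0.58), and at 3.15 and 3.88 CPM in PyMT-N (-0.30, -0.78 to 0.15). Oas1a passed 2-fold in PyMT-N (2.11) and not in PyMT-M (0.91), where its tumor level was 33.0 CPM against 5.68 in PyMT-N. Oasl1 gave a log2 ratio of 1.91 in both libraries, Oas2 gave 2.82 and 1.24, and Oasl2 gave 1.81 and 1.21. The PyMT-N ratio of Oas2 was 0.43, within 2-fold, after cells were thinned to 4000 UMIs.

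The other antiviral effectors were led by Rsad2 (viperin, which makes a chain-terminating nucleotide) and by Cmpk2, its genomic neighbour and a nucleotide kinase. Rsad2 stood at 274 and 49.8 CPM in blood endothelial and tumor cells of PyMT-M (log2 ratio 2.46) and at 117 and 9.83 CPM in PyMT-N (3.57). Cmpk2 gave 2.22 and 2.69 on the same scale. The log2 ratio was larger in PyMT-N than in PyMT-M for 8 genes (Rsad2, Cmpk2, Oas1a, Ifi44, Ifi35, Usp18, Irf9 and Eif2ak2), and smaller for the 4 Ifit genes. Mx2 gave log2 ratios of 2.63 and 2.11, Samd9l 1.87 and 1.55, Isg20 1.58 and 1.11, and Eif2ak2 (PKR, which halts translation on double-stranded RNA) 1.01 and 1.06. Zbp1, a sensor of Z-form nucleic acid, passed 2-fold in PyMT-M alone (2.19 against 0.89). Mx1, a dynamin-like GTPase, did so too (1.15 against 0.31, -0.13 to 0.73) on low counts of 42 and 59 UMIs in blood endothelial cells, and C57BL/6 mice carry a defective Mx1 gene. The PyMT-N ratio of Mx1 turned to -0.54 with cells of 1 class only and was 1.13 after thinning.

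In the ISG15 system, Isg15 itself stood at 675 and 134 CPM in blood endothelial and tumor cells of PyMT-M (log2 ratio 2.33) and at 167 and 81.6 CPM in PyMT-N (1.03). The PyMT-N ratio of Isg15 was 0.77, within 2-fold, after cells were thinned to 4000 UMIs. Uba7, the enzyme that activates ISG15 for conjugation, was at 63.1 against 2.88 CPM in PyMT-M (4.45) and at 37.2 against 3.41 CPM in PyMT-N (3.45). The level of Uba7 in tumor cells was thus 3.41 CPM or less in both libraries. Trim25, a ligase that also acts on RIG-I, gave log2 ratios of 2.08 and 1.67, and Herc6, a ligase for ISG15 in mice, 1.74 and 0.92. Usp18, which removes ISG15 and restrains receptor signaling, was within 2-fold of tumor cells in each library. It stood at 98.0 and 62.6 CPM in PyMT-M (0.65) and at 30.2 and 16.6 CPM in PyMT-N (0.87). In cells without UMIs of Mki67 and Top2a the ratios of Usp18 were 1.23 and 1.06, past 2-fold in both libraries.

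The RNA sensors stood between these extremes. Rigi (RIG-I) gave log2 ratios of 1.64 and 1.18, Ifih1 (MDA5) 1.92 and 1.54, and Dhx58 (LGP2, which tunes both) 1.89 and 1.28, in PyMT-M and PyMT-N. Of the factors, Irf7 was at 396 and 38.6 CPM in blood endothelial and tumor cells of PyMT-M (3.36) and at 104 and 29.7 CPM in PyMT-N (1.80), while Stat2 gave 2.39 and 1.73 and Irf9 1.44 and 1.50. The sensors and these factors passed 2-fold in both libraries. The PARP9 complex, in which PARP9 pairs with the ligase DTX3L, gave 1.61 and 0.95 for Parp9, 1.70 and 1.03 for Dtx3l, and 2.71 and 2.00 for the related Parp14. Among the remaining genes Rtp4 gave 2.03 and 1.76, Xaf1 2.19 and 1.88, and Ifi44 1.93 and 2.20. Ifi35 was nearly level in PyMT-M, at 161 CPM in blood endothelial and 138 CPM in tumor cells (0.22, and from -0.03 to 0.49 over 10 other ways of processing), and was at 74.1 and 37.5 CPM in PyMT-N (0.98).

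**Figure D3:**
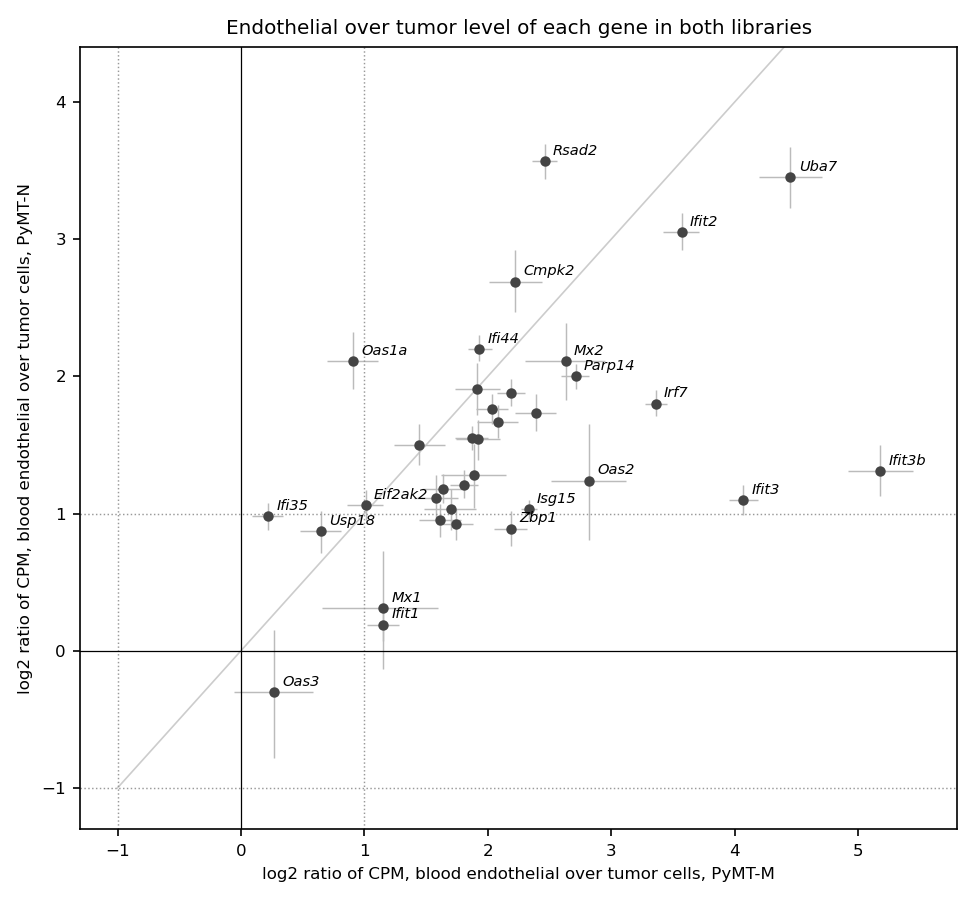
Log2 ratio of CPM, blood endothelial over tumor cells, in PyMT-M (x axis) and PyMT-N (y axis), 1 point per gene with 95% counting intervals. Dotted lines mark 2-fold and the grey line equal ratios. Ifit3b (5.18 and 1.31) and Ifit3 (4.07 and 1.10) lie far below the line, Rsad2 (2.46 and 3.57) above it, and Oas3 (0.27 and -0.30) near the origin.

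By category, 26 of 35 genes were endothelial-high, at least 2-fold above tumor cells in both libraries (9.12% of 10137 genes ranked in both). The shares over all genes here rest on the same unequal sums and have the same limit. Shared genes, within 2-fold in both, were Oas3 (ENSMUSG00000032661), Usp18 (ENSMUSG00000030107) and Ifi35 (ENSMUSG00000010358), 3 of 35 against 56.5% of all ranked genes. The 6 genes Ifit1, Oas1a, Mx1, Zbp1, Herc6 and Parp9 passed 2-fold in 1 library, and 0 genes were tumor-high (7.23%). Which genes counted as shared moved with the processing. With cells of 1 class only, Usp18 stayed and Mx1 took the place of Oas3 and Ifi35, and at a limit of 1.5-fold Oas3 alone stayed. In cells without UMIs of Mki67 and Top2a, Oas3 and Ifi35 stayed and Usp18 did not.

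Endothelial-specific genes, at least 2-fold above tumor cells, fibroblasts and Ptprc+ cells in both libraries, were Ifit2 (ENSMUSG00000045932), Rsad2 (ENSMUSG00000020641) and Ifi44 (ENSMUSG00000028037). That is 3 of the 32 genes ranked in all 6 contrasts, against 5.97% of the 6687 genes so ranked, a share that is also limited by unequal sums. Ifi44, an interferon-induced antiviral protein, stood in PyMT-M at 295 CPM in blood endothelial cells, 77.2 in tumor cells, 91.2 in fibroblasts and 47.2 in Ptprc+ cells. In PyMT-N it stood at 110, 23.9, 17.6 and 21.9 CPM. Ifi44 met the definition under all 11 other ways of processing it. Ifit2 stood at 160, 13.5, 14.9 and 64.8 CPM in the same classes of PyMT-M and at 79.3, 9.57, 3.92 and 37.3 CPM in PyMT-N, close to 2-fold over Ptprc+ cells (log2 ratio 1.30 and 1.09). Ifit2 was lost from the category under 8 of the 11 and Rsad2 under 7, among them cells of 1 class only, where Ifi44 and Cmpk2 met it. Rsad2 stood at 31.6 (PyMT-M) and 54.2 CPM (PyMT-N) in fibroblasts. The fibroblast sums rest on 58 and 63 cells.

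Against Ptprc+ cells the counts of the 2 libraries differed, to an extent that depended on which cells were used. Over 12 other ways of processing, the count at least 2-fold higher lay between 5 and 26 in PyMT-M and between 2 and 6 in PyMT-N. In PyMT-M 17 of 35 genes were at least 2-fold higher in blood endothelial cells (17.6% of 11404 ranked genes), with a median log2 ratio of 0.96 against -0.01 over all genes. In PyMT-N 3 were higher (16.0% of 12303), Ifi44 (2.33), Rsad2 (2.13) and Ifit2 (1.09), the median was 0.04 against 0.01, and 3 were at least 2-fold lower (15.7%), namely Mx1 (-2.99), Oas3 (-2.54) and Oas2 (-1.56). The next in order there were Uba7 (0.99) and Cmpk2 (0.86) at the upper and Zbp1 (-0.60) and Dtx3l (-0.40) at the lower end. Mx1 stood at 34.0 and 31.4 CPM in Ptprc+ cells against 12.7 and 3.96 CPM in blood endothelial cells. It was also the 1 gene at least 2-fold lower in PyMT-M (-1.42, 16.5% of all genes), where Oas3 (-0.38), Ifi35 (0.36), Usp18 (0.60) and Samd9l (0.60) followed. The upper end in PyMT-M was Ifi44 (2.64), Uba7 (2.48), Ifit3 (1.99), Ifit3b (1.96) and Xaf1 (1.74). The PyMT-M count was 9 with cells of 1 class only and 5 in cells without UMIs of Mki67 and Top2a, and in PyMT-N it was 6 with cells of 1 class only.

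Over fibroblasts, 19 genes were at least 2-fold higher in blood endothelial cells in each library (21.0% of 7167 genes in PyMT-M and 21.6% of 10042 in PyMT-N), and 0 were at least 2-fold lower (7.79% and 9.85%). Here 34 and 32 genes were ranked, with medians of 1.15 and 1.16 against 0.22 and 0.21 over all genes. In PyMT-M the ratio was largest for Ifit2 (3.43), Rsad2 (3.12), Oasl1 (2.63), Cmpk2 (2.46) and Mx2 (2.34), and smallest for Oas2 (-0.30), Zbp1 (0.06), Oas1a (0.36), Ifih1 (0.46) and Ifit1 (0.47). In PyMT-N Ifit2 (4.34), Cmpk2 (2.94), Ifi44 (2.64), Mx2 (2.34) and Parp14 (2.14) led, and Ifit1 (-0.72), Isg20 (-0.01), Usp18 (0.21), Zbp1 (0.22) and Eif2ak2 (0.45) stood lowest. Ifit2, Cmpk2 and Mx2 were thus among the 5 highest in both libraries, and Ifit1 and Zbp1 among the 5 lowest.

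Blood and lymphatic endothelial cells could be compared for most of the set in PyMT-N only. There, with 207 lymphatic cells, 1 of 34 ranked genes was at least 2-fold higher in blood endothelial cells, Oasl2 (log2 ratio 1.43, 9.93% of 11291 genes), and 2 were at least 2-fold lower, Mx1 (-2.0) and Zbp1 (-1.24, 8.40%), with a median of 0.03 against -0.09. Rtp4 (0.97), Oas2 (0.97), Uba7 (0.63) and Oasl1 (0.41) came next at the upper end, and Cmpk2 (-0.96), Ifit1 (-0.94) and Dhx58 (-0.89) at the lower. In PyMT-M 20 lymphatic cells held 89004 UMIs against 3297266 in blood endothelial cells, and 16 genes could be ranked. With sums this unequal a gene passes the filter mainly through its blood endothelial level, so the counts are a description only. Of the 16, 5 were at least 2-fold higher in blood endothelial cells (17.7% of 1647 genes) and 0 lower (4.31%), and the 5 became 0 after thinning and 13 with no filter. The 5 were Ifit3 (2.17), Rsad2 (2.03), Rtp4 (1.95), Oasl2 (1.35) and Herc6 (1.17), with a median of 0.09 against 0.17. The lowest there were Eif2ak2 (-0.80), Zbp1 (-0.36), Ifit2 (-0.07), Ifit1 (-0.04) and Xaf1 (-0.02). Oasl2 was past 2-fold in both libraries under this filter. Oas3 and Uba7 had 0 UMIs in those 20 cells, and no ratio is given for them.

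Between the models, every gene of the set made up a larger share of the UMIs in blood endothelial cells of PyMT-M. This too is not an amount per cell. The 588 PyMT-M cells held 16430 UMIs of the set and the 1065 PyMT-N cells 29644. Their median depth was 5206 and 12696 UMIs, and the part of depth in the difference was not tested. On the log2 scale the ratio of PyMT-M to PyMT-N was above 0 for all 35 genes, with a counting interval above 0 for each, and 26 of 35 were at least 2-fold higher (4.03% of 11354 ranked genes), with 0 lower (6.66%). The median was 1.23 against -0.01 over all genes. Over 12 other ways of processing the count lay between 21 and 26 and the median between 1.14 and 1.33. These are 2 libraries without replicates, so the difference is one between these pools and cannot be told apart from library preparation.

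Oas3 had the largest ratio, at 25.8 against 3.15 CPM (log2 3.03, 2.50 to 3.58), on 85 and 47 UMIs. Oas2 followed, at 33.4 against 4.83 CPM (2.79, 2.35 to 3.24). Isg15 stood at 675 against 167 CPM (2.02, 1.94 to 2.10), Ifit3 at 252 against 63.6 CPM (1.99) and Irf7 at 396 against 104 CPM (1.93). The smallest ratios belonged to Samd9l, at 152 against 104 CPM (0.55, 0.40 to 0.69), Rigi (0.57), Trim25 (0.65), Irf9 (0.75) and Parp9 (0.76). By role, all 4 Ifit and all 5 OAS genes were past 2-fold, as were 6 of 8 other effectors, 3 of 5 genes of the ISG15 system, 2 of 3 sensors and 2 of 3 factors. In the PARP9 complex 0 of 3 were, with Dtx3l at 0.85 and Parp14 at 0.83. Rtp4, Ifi44, Ifi35 and Xaf1 were all past 2-fold, at 1.10 to 1.42.

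The leukocyte content of the blood endothelial class differed between the models. Lyz2, a myeloid gene, stood at 12.7 CPM in the PyMT-M and 106 CPM in the PyMT-N blood endothelial class, and C1qa at 0.303 and 113 CPM. With cells of 1 class only, Lyz2 was at 0.924 and 0.950 CPM, and the summed level of the 35 genes was 4975 and 2011 CPM against 4983 and 1988 CPM with all cells of the class.

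Tumor cells gave a more uneven picture. Between the models 10 of 35 genes were at least 2-fold higher in PyMT-M (21.3% of 16366 genes) and 1 was at least 2-fold lower (27.1%), with a median of 0.73 against -0.11 over all genes. Oas1a (log2 ratio 2.54), Oas3 (2.46), Rsad2 (2.34), Usp18 (1.92) and Ifi35 (1.88) were highest. Ifit3b (-2.17, -2.38 to -1.96), Ifit3 (-0.99) and Uba7 (-0.25, -0.48 to -0.01) were lower in PyMT-M, although Uba7 gave 0.27 after cells were thinned to 4000 UMIs, and Parp9 (0.10) and Rigi (0.12) were the smallest above 0. In cells without UMIs of Mki67 and Top2a, markers of cycling cells, Parp9 and Rigi both gave -0.15, and Parp14 (-0.14), Irf7 (-0.04), Dtx3l (-0.03) and Herc6 (-0.03) also turned below 0. Those markers summed to 318 CPM in tumor cells of PyMT-M and 48.7 CPM in PyMT-N, and their part in the result was not tested. The count was 17 when mitochondrial, ribosomal-protein and hemoglobin genes were left out of the total. Ifit3 and Ifit3b thus stood at a higher level in tumor cells of PyMT-N, at 29.6 and 9.44 CPM, than in those of PyMT-M, at 15 and 2.10 CPM, while Ifit1 next to them stood higher in PyMT-M (68.5 against 41.3 CPM, log2 0.73).

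The ratio of PyMT-M over PyMT-N was at least as large in blood endothelial as in tumor cells for 27 of 35 genes, and larger for 5726 of the 10985 genes ranked in both classes. The difference of the log2 ratios had an interval above 0 for 26 genes and below 0 for 5, with a median of 0.52 against 0.05 over 10985 genes. It was largest for Ifit3b (3.86), Ifit3 (2.97), Oas2 (1.59), Irf7 (1.55) and Isg15 (1.30). It was below 0 for 8 genes, the same 8 whose endothelial-over-tumor ratio was larger in PyMT-N. By arithmetic this difference is the endothelial-over-tumor log2 ratio of PyMT-M less that of PyMT-N, so it restates the ratios above and is no separate result. The 5 of these genes with an interval below 0 were Oas1a (-1.2), Rsad2 (-1.11), Ifi35 (-0.77), Cmpk2 (-0.47) and Ifi44 (-0.27), and the intervals of Usp18 (-0.22), Irf9 (-0.06) and Eif2ak2 (-0.05) spanned 0. Oasl1 had a ratio of 1.65 in both classes to 2 decimals, with an interval of the difference from -0.27 to 0.27.

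**Figure D4:**
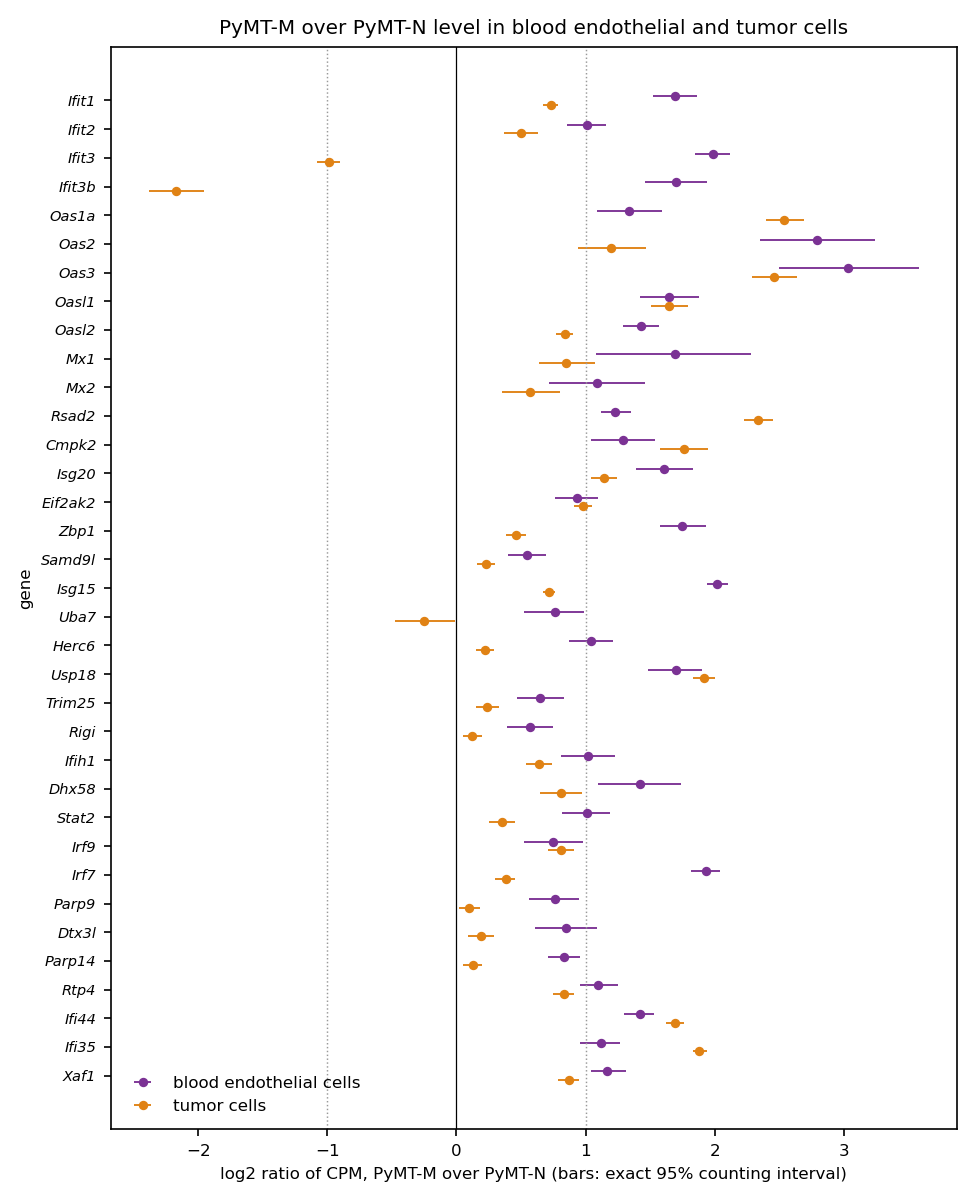
Log2 ratio of CPM, PyMT-M over PyMT-N, for each gene in blood endothelial cells (purple) and tumor cells (orange), with exact 95% counting intervals. Dotted lines mark 2-fold. All purple points lie right of 0, from 0.55 (Samd9l) to 3.03 (Oas3), and the orange points run from -2.17 (Ifit3b) to 2.54 (Oas1a).

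In fibroblasts 14 of 23 ranked genes were at least 2-fold higher in PyMT-M (6.61% of 6898 genes) and 0 lower (11%), with a median of 1.39 against -0.06. Ifi44 (2.37), Zbp1 (1.92), Rtp4 (1.85), Isg15 (1.70) and Irf7 (1.70) were highest, and Rsad2 (-0.78), Rigi (0.07), Trim25 (0.15), Herc6 (0.37) and Isg20 (0.37) lowest. In Ptprc+ cells 5 of 35 were at least 2-fold higher (10.6% of 11570 genes), Rsad2 (1.97), Ifi44 (1.11), Isg15 (1.10), Irf7 (1.08) and Ifi35 (1.01), and 0 were lower (14.6%), with a median of 0.47 against -0.08, and the count was 11 with cells of 1 class only. The lowest there were Uba7 (-0.73), Mx2 (-0.46), Parp9 (-0.42), Dtx3l (-0.24) and Parp14 (-0.23). Only 4 genes could be ranked in lymphatic cells, where the sums were 89004 UMIs for PyMT-M (20 cells) against 2835340 for PyMT-N. With sums this unequal a gene passes the filter mainly through its PyMT-N level, so the counts are a description only. Isg15 (1.55, 1.13 to 1.93) was at least 2-fold higher (3.53% of 1700 genes). Rsad2 (-1.08, -2.53 to 0.05) was at least 2-fold lower (13.2%), with an interval that spanned 0. Parp14 (0.84) and Ifi44 (0.75) lay between. The count of 1 higher gene became 12 with no filter. Isg15 was past 2-fold in every class but the tumor cells, with its lymphatic ratio resting on those 20 PyMT-M cells.

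The level was spread over most blood endothelial cells of PyMT-M. After cells were thinned to 4000 UMIs, which left out 205 of 588 PyMT-M and 20 of 1065 PyMT-N blood endothelial cells, the median cell held 15 (PyMT-M) and 5 (PyMT-N) UMIs of the set. The 10th percentile lay at 5 and 1 UMIs and the 90th at 40 and 18. In PyMT-M 0 of the 383 cells lacked a UMI of the set, which allows a share of up to 0.959%, and in PyMT-N 5.55% of cells did (4.24 to 7.12). In tumor cells the median was 3 and 1 UMIs, and 11.1% and 26.9% of cells had none. The 10% of cells with the most UMIs of the set held 29.9% (PyMT-M) and 44.4% (PyMT-N) of them among blood endothelial cells, and 40.4% and 56.7% among tumor cells.

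**Figure D5:**
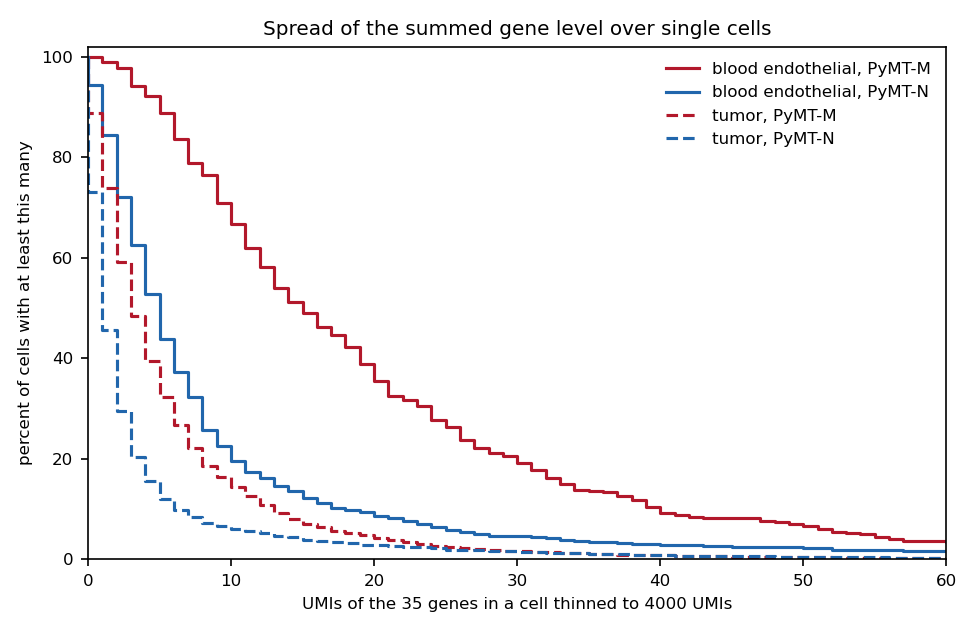
Percent of cells (y axis) that hold at least the number of UMIs of the 35 genes on the x axis, after each cell was thinned to 4000 UMIs, for blood endothelial (solid) and tumor cells (dashed) of PyMT-M (red) and PyMT-N (blue). The PyMT-M blood endothelial curve lies above the others, with medians of 15 against 5, 3 and 1 UMIs.

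By gene, 32 of 35 were seen in at least 10% of thinned blood endothelial cells of PyMT-M (37.8% of the 14854 genes with a UMI there) and 24 in at least 10% of those of PyMT-N (32.9% of 17097). Isg15 was seen in 78.3% of thinned PyMT-M and 30% of PyMT-N blood endothelial cells (75.7% and 52.1% unthinned), against 31.1% and 17.2% of tumor cells (61.9% and 37.0% unthinned). Irf7 was seen in 64.2% and 24.4% (71.4% and 43.6% unthinned), against 13.8% and 10.6% of tumor cells (46.4% and 27.4% unthinned). Ifi44 was seen in 57.2% and 30.4% (64.1% and 51.0% unthinned), against 23.6% and 8.05% of tumor cells (57.2% and 20.6% unthinned). The shares of these 3 genes in endothelial cells exceeded those in tumor cells at equal depth. Mx1 was rare in both, at 4.18% and 1.34% of thinned blood endothelial and 2.27% and 0.605% of tumor cells (unthinned, 5.10% and 3.0% of blood endothelial and 9.28% and 2.90% of tumor cells). Oas3 was seen in 8.09% of thinned blood endothelial and 8.01% of tumor cells of PyMT-M, although 11.1% and 32.7% held a UMI unthinned. The genes varied together over cells. When the set was split into lists of 18 and 17 genes, their thinned UMIs correlated over cells with Pearson's r of 0.79 in 383 PyMT-M and 0.84 in 1045 PyMT-N blood endothelial cells, which within a library share pool and depth. Spearman's rho was 0.78 and 0.61. This was not particular to endothelial cells, as r was 0.71 and 0.81 and rho 0.56 and 0.41 in tumor cells. No other gene list was split for comparison. Ifit3 and Ifit3b, which share stretches of sequence, fell in different lists.

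Of the interferon pathway around the set, a list of 38 genes, few were past 2-fold between the models in blood endothelial cells. Of 26 ranked, 1 was at least 2-fold higher in PyMT-M and 2 at least 2-fold lower (4.03% and 6.66% of all genes), with a median of -0.00. The receptor chains stood close, with Ifnar1 at 71.9 and 78.3 CPM and Ifnar2 at 186 and 189 CPM in PyMT-M and PyMT-N. High ratios belonged to Cgas (log2 1.31), the DNA sensor, and Adar (0.97), an RNA-editing enzyme that is itself interferon-inducible. The lowest belonged to Ptpn6 (-3.87) and Irf5 (-1.71), both known from leukocytes, and to the adaptor Ticam1 (-0.46). With cells of 1 class only, Ptpn6 had 2 and 4 UMIs and Irf5 3 and 3, and neither was lower in PyMT-M (1.08 and 2.08, with intervals that spanned 0). In the same cells Cgas gave 1.38 and Adar 1.08 (0.82 to 1.33), so Adar was then past 2-fold.

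RNA of the listed interferon genes was scarce in these cells, which had been depleted of CD45+ cells before sequencing. Ifnb1 had 0 UMIs in blood endothelial cells of both libraries, which allows a share of cells with a UMI of up to 0.625% (PyMT-M) and 0.346% (PyMT-N). Tumor cells held 87 UMIs (0.720 CPM) in PyMT-M against 5 (0.0662 CPM) in PyMT-N. Ifnk, which encodes another type I interferon, went the other way, with 0 UMIs in tumor cells of PyMT-M and 14 (0.185 CPM, 0.101 to 0.311) in PyMT-N. The 0 Ifnb1 UMIs of blood endothelial cells allow up to 1.12 (PyMT-M) and 0.247 CPM (PyMT-N), above the tumor levels of Ifnb1. A lower Ifnb1 level in blood endothelial than in tumor cells is thus not shown. Ifng stood at 4.29 and 2.94 CPM in Ptprc+ cells. The list of 19 interferon gamma genes, such as chemokines and antigen-presentation genes, also stood higher in PyMT-M blood endothelial cells, with 14 of 18 ranked genes at least 2-fold higher (4.03% of all ranked genes) and a median of 1.11 against -0.01. Cxcl10 (log2 1.96), Cxcl9 (1.72) and Iigp1 (1.62) led it. Ciita (-3.95) was the 1 gene lower there, and with cells of 1 class only it had 1 and 3 UMIs (0.49). Which interferon the genes of this list responded to was not tested.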

How the data were processed

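Droplet-based 3′ single-cell RNA sequencing was done on 1 PyMT-M and 1 PyMT-N library, each a pool of 3 tumors. Raw UMI counts, whole numbers for every gene in every barcode, were deposited without normalization. Gene and barcode lists were deposited beside them. The submitters' processing notes name Cell Ranger 8.0.0 and the mouse build mm39.

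Barcodes with at least 200 detected genes and at most 10% mitochondrial UMIs were kept. Blood endothelial cells had at least 5 UMIs of Pecam1, Flt1, Emcn and Kdr together, at most 1 of Krt8, Krt18 and Rhox5 together, and 0 of Prox1. Lymphatic cells had at least 3 UMIs of Prox1, Mmrn1 and Reln, tumor cells at least 3 of Krt8, Krt18 and Rhox5 with 0 of Pecam1 and Flt1, fibroblasts at least 3000 CPM of Col3a1, and Ptprc+ cells at least 1 UMI of Ptprc. Classes may overlap. No class gene is among the 35 genes. Doublets were kept. As an alternative, the 6% of barcodes with the highest Scrublet scores per library were removed.

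Counts were summed per class and library and scaled here to CPM, an equal total of UMIs for every class. Levels carry exact Poisson intervals, ratios an exact conditional interval for 2 Poisson counts, and shares exact Clopper-Pearson intervals, all at 95%. They cover counting error only. Differences of log2 ratios combine both intervals by the square-and-add method. A gene was ranked where the pooled rate predicted at least 10 UMIs in the smaller sum. Where the sums are unequal a gene passes mainly through its level in the larger sum, which limits the shares over all ranked genes. With 1 library per condition nothing was tested, and cells served for no p-value. For shares of cells, cells were thinned to 4000 UMIs. Named are all 35 genes by role, the 5 highest and 5 lowest of each comparison, the genes that reach or miss a category, and the 3 highest and 3 lowest of the pathway list, of which 1 gene is not reported here. Members and lists were chosen with earlier results of these data known.

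Promoters came from a RefSeq table on GRCm38.p6, which differs from the build of the counts, so no coordinate was carried over between them. The ratio code was checked on simulated counts. Alternatives were the limits on detected genes, mitochondrial UMIs and class genes, cells of 1 class only, doublet scores, the scaling, the mean over cells, cells without Mki67 and Top2a UMIs, thinning, the count filter and the fold limit. The versions were scanpy 1.11.5, scipy 1.17.1, pandas 2.3.3, numpy 2.4.6, matplotlib 3.10.9 and Python 3.11.15. The human, proteomic and imaging data of the study were not analysed here.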

Additional observations from a re-analysis of the deposited data

Results flagged for a closer look

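Genes that stood higher in 1 model in blood endothelial cells and higher in the other in tumor cells come first. On the log2 scale, PyMT-M against PyMT-N, Ifit3 stood at -0.99 in tumor cells and 1.99 in blood endothelial cells, and Ifit3b at -2.17 and 1.70. Over 10 other ways of processing, the tumor ratio of Ifit3 lay between -1.12 and -0.78 and that of Ifit3b between -2.21 and -1.96. These 2 genes share stretches of sequence, and reads could be split or lost between them. Uba7 had -0.25 in tumor cells against 0.76 in blood endothelial cells, and its tumor ratio was 0.27 after cells were thinned to 4000 UMIs. With 1 library per model the difference between the classes was not tested.

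Kept cells that met no class rule also held the genes. Their summed level was 1458 CPM (1438 to 1478) in 724 PyMT-M cells and 936 CPM (922 to 950) in 699 PyMT-N cells. It lay between the tumor and blood endothelial levels of the same library, and above the 0.219 and 0.172 CPM that 3 UMIs would give. All 35 genes had a UMI there. Endothelial markers summed to 409 and 856 CPM there, and the tumor-rule genes to 813 and 1481 CPM. These cells entered no comparison above.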

How the results depend on the processing

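Of the counts of genes recomputed under the alternatives, 165 lay within 1.5 times the reported count and 47 did not, and 0 results changed direction past 2-fold. The counts of blood endothelial over tumor cells (26 to 33 and 24 to 29) and of PyMT-M over PyMT-N in blood endothelial cells (21 to 26) all stayed within that range. Of the recomputed log2 ratios of single genes, 243 were labeled as moved and 1157 as the same, and of the medians 17 and 137. Among single genes, 73 moved and 67 did not in cells without Mki67 and Top2a UMIs. When scaled without mitochondrial, ribosomal-protein and hemoglobin genes, 58 moved and 82 did not. For blood endothelial over Ptprc+ cells of PyMT-M the count of 17 became 26 with genes detected within 2-fold of the median, 9 with cells of 1 class only, 6 with stricter class limits, 7 without the highest doublet scores, 10 by the mean over cells, 5 without Mki67 and Top2a UMIs and 7 after thinning to 4000 UMIs. In PyMT-N the count of 3 became 5, 6 and 5 under the first, the second and the mean over cells. For PyMT-M over PyMT-N in Ptprc+ cells the count of 5 became 2, 11, 12, 11, 11, 19 and 13 under the same 7 alternatives in order. Over lymphatic cells the PyMT-M count of 5 became 3 under the limit on detected genes and under stricter classes, 0 after thinning and at 30 predicted UMIs, and 13 with no filter. The PyMT-N count of 1 became 2 without doublets, by the mean over cells and without Mki67 and Top2a, 4 after thinning and 3 with the median of all genes set to 0. Between the models, lymphatic cells gave 2 (stricter classes), 0 (thinned), 0 (30 predicted UMIs) and 12 (no filter) against 1, and fibroblasts 9, 9, 4 and 24 against 14. Tumor cells gave 17 against 10 when scaled without mitochondrial, ribosomal-protein and hemoglobin genes, and shared genes were then 5 against 3. Endothelial-specific genes were 1 against 3 under stricter classes, without doublets, without Mki67 and Top2a, after thinning and at 3-fold, and 8 at 1.5-fold. At 1.5-fold 1 gene was shared, and at 3-fold 8 were shared and 13 endothelial-high against 26. Thinned to 2000 UMIs, 14 genes against 24 were in at least 10% of PyMT-N blood endothelial cells. The cause was not tested. No paired analysis was possible because each condition has 1 library. Fibroblast values rest on 58 and 63 cells and PyMT-M lymphatic values on 20.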

Other observations

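Cells with Ifnb1 RNA were looked at after their values were seen. In PyMT-M 23 of 4902 tumor cells (0.469%, 0.298 to 0.703) held the 87 Ifnb1 UMIs, with up to 25 in 1 cell, and in PyMT-N 1 of 3306 held 5. The summed level of the 35 genes was 9777 CPM in those 23 cells, on 4545 UMIs, and 1235 CPM in the other tumor cells of PyMT-M. In the 1 PyMT-N cell it was 17553 CPM, on 128 UMIs, against 710 CPM. Ifna2 and Ifna4, ligands of the same receptor, stood at 0.00827 and 0.0165 CPM in tumor cells of PyMT-M. The level of the set was thus higher in cells with Ifnb1 in both libraries, and this difference was not tested.

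The kinase Jak2 stood at 6.27 CPM in tumor cells of PyMT-M and 106 CPM in those of PyMT-N (log2 ratio -4.08, -4.19 to -3.97), and Ifngr2 at 15.3 and 71.2 CPM (-2.22). In blood endothelial cells the same genes were at 111 and 88.3 CPM and at 91.3 and 90.3 CPM. Socs1, a negative regulator of the receptor kinases, was the other way round in tumor cells, at 27.3 and 7.61 CPM (1.84).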
